A study of Rattus norvegicus with 15 samples.

Results

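Livers of male Sprague-Dawley rats fed daidzein, an isoflavone of soy, were compared with livers of rats fed the same diet without isoflavones. The comparison took 10 of the 15 arrays of the series: the 5 whose titles name the daidzein diet and the 5 whose titles name the non-isoflavone diet, with all 31042 probe sets that are not array controls. The titles call the 5 arrays of a diet biological replicates. The rats were 4 weeks old at the start, adapted for 5 days and then ate their diet for 14 days. Both diets held 200 g/kg casein, 100 g/kg palm oil, 150 g/kg corn starch and 20 g/kg cellulose, with sucrose as the remainder, and the daidzein diet also held 2 g/kg daidzein. The 5 rats on the other isoflavone, genistein at 2 g/kg, entered the normalization, the filter on dim probe sets and the estimate of the spread. They also entered the choice of the probe set that stands for a gene and, where stated, a direct comparison.

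Dietary daidzein is taken up in the gut, where bacteria convert part of it to equol, and it reaches the liver, which couples it to glucuronic acid and sulfate. Foreign compounds can raise the liver's detoxification enzymes through several regulators: Nrf2, a transcription factor that is held back by Keap1 and binds antioxidant response elements; CAR and PXR, nuclear receptors for drugs; and the aryl hydrocarbon receptor. Reductases, epoxide hydrolase and glutathione S-transferases (GSTs), which join glutathione to reactive compounds, are among the enzymes so controlled.

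After 14 days on daidzein, 3 of 18625 tested probe sets passed the test (0.0161%; limma, adjusted p under 0.05), and all 3 were detoxification enzymes that rose: the aldehyde reductase Akr7a3 4.39-fold, the alpha-class glutathione S-transferase Gsta3 and the microsomal epoxide hydrolase Ephx1 1.73-fold. Gsta3 rose 10.8-fold as rebuilt and 6.64-fold with 16 units added to every intensity. Its mean in control rats lay below the filter level, so the probe set entered the test only through its signal in the isoflavone groups, and the size has no firm base. No probe set passed in the downward direction. In the fit on the 10 arrays alone, without the genistein rats, Cd14 passed and Ephx1 did not. At an unadjusted p under 0.05 there were 1545 probe sets (8.3%), where 931 are expected by chance; without quantile normalization there were 1309, and with median centring in its place 920, so the excess depended on the normalization. Of 10745 genes, 48.8% were higher and 51.2% lower with daidzein at any p; under 0.05, 431 (4.01%) were higher and 493 (4.59%) lower. Member counts of the lists below are set against these shares as a description. The lists were chosen with earlier results of these data known. Larger differences were few: 28 genes (0.261%) were at least 2-fold higher and 17 (0.158%) at least 2-fold lower.

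A level here is the log2 of an array intensity rebuilt from the deposited values, whose zero is arbitrary, so levels are compared between rats and not between genes. The 10 arrays correlated at 0.945 to 0.969. Hepatocyte markers were measured in all of them, for example the urea cycle enzyme Cps1 between 12.23 and 12.74. The array of daidzein rat 5 had the lowest median correlation with the other 9 (0.9535), just below that of control rat 1 (0.9539). It also carried transcripts of pancreatic acinar cells. Of 21 probe sets for acinar genes on the array, it was the highest of the 10 arrays in 20 and over 1 log2 unit above the other 9 in 19, with a median gap of 5.39. Prss1, which encodes trypsinogen, read 12.88 there and at most 5.51 elsewhere, and the pancreatic lipase Pnlip read 12.22 there and at most 5.82 elsewhere. Of 8 islet probe sets it was the highest in 2, among them the insulin gene Ins2 with 6.87 against at most 5.57. The 11 acinar genes that passed the filter on dim probe sets did so with that array included; they had a median log2 difference of 1.07 with rat 5 and -0.04 without it. Without daidzein rat 5, 2 probe sets (0.0107%), Akr7a3 and Gsta3, passed. Of 118 genes given with values below, pancreatic ones aside, leaving out that rat moved the log2 difference by over 0.2 in 3 (Akr1b7, Cyp7a1 and Insig1) and turned its sign in 3 (Akr1b7, Cyp7a1 and Nqo2), with a median move of 0.0252; values without it stand beside the results that turn on it, beside most lists and in the plot of list medians.

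**Figure D1:**
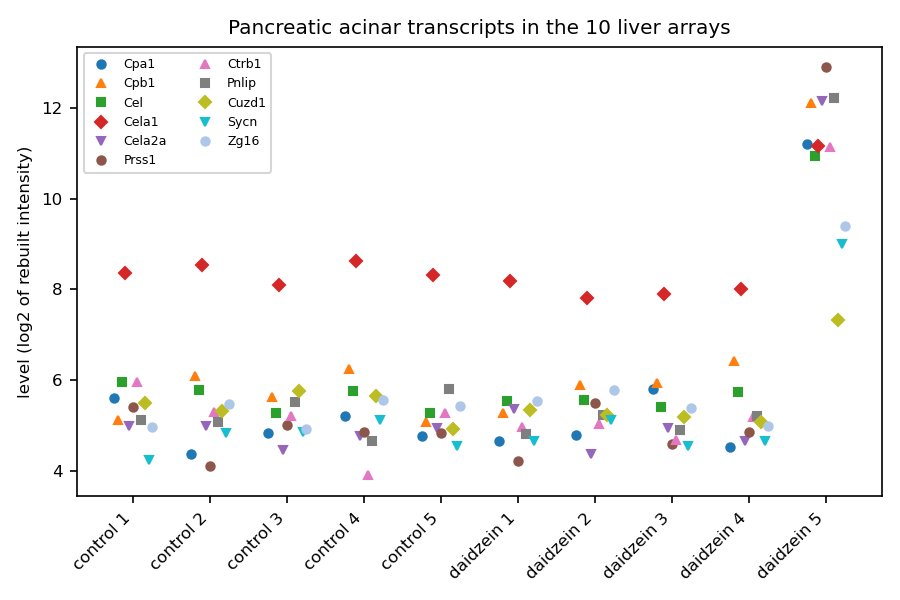
Levels of the 11 tested pancreatic acinar genes (y axis, log2 of rebuilt intensity) on each of the 10 liver arrays (x axis), 1 point per gene and array. All 11 genes were highest on the array of daidzein 5, and only Cela1 read above 7 on the other 9 arrays.

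Akr7a3 encodes an aldo-keto reductase that converts the dialdehyde of aflatoxin and other reactive aldehydes to alcohols. Its level was 8.82, 9.17, 8.61, 8.81 and 8.71 in control rats 1 to 5 and 11.25, 11.00, 10.66, 10.97 and 10.91 in daidzein rats 1 to 5. The gap between the lowest daidzein rat and the highest control rat was wider than the range within a diet, which was 0.56 in control and 0.59 in daidzein rats. The log2 change was 2.13 (SE 0.159, 95% confidence interval 1.80 to 2.47, n = 5 and 5, adjusted p = 2.45e-05), and it was 2.15 without daidzein rat 5 (adjusted p = 0.000176). With genistein the level averaged 8.75 ± 0.344 (SD, n = 5), a change of -0.08 from the same control rats, and daidzein exceeded genistein directly by 2.21 (adjusted p = 1.52e-05).

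Gsta3, a GST of the alpha class, read 4.16, 5.23, 3.75, 4.34 and 5.04 in control rats 1 to 5 and 8.41, 7.59, 7.62, 8.07 and 8.00 in daidzein rats 1 to 5. All 5 daidzein rats were above all control rats, whose mean of 4.50 lay below the level of 4.99 that a probe set had to reach on average to be tested. The log2 change was 3.44 (SE 0.376, 95% confidence interval 2.63 to 4.24, adjusted p = 0.00187) and 3.42 without daidzein rat 5 (adjusted p = 0.0104). The size depended on the background: with 16 units added the change was 2.73 (adjusted p = 0.000737). Genistein rats averaged 6.22, which is 1.72 above the control rats (adjusted p = 0.0746), and daidzein and genistein differed by 1.72 (adjusted p = 0.0884). Without both control rat 1 and daidzein rat 5, the adjusted p was 0.0521. Rat alpha-class GSTs are close in sequence, and cross-hybridisation between them was not tested.

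Ephx1 encodes microsomal epoxide hydrolase, which opens epoxides to diols. Its level was 11.26, 11.43, 11.06, 11.35 and 11.45 in control rats 1 to 5 and 12.28, 11.84, 12.04, 12.17 and 12.17 in daidzein rats 1 to 5. The groups did not overlap, and the step was 0.79 (SE 0.117, 95% confidence interval 0.54 to 1.04, adjusted p = 0.0447). The size was 0.77 without daidzein rat 5 but the call was lost (adjusted p = 0.125); it held in 1 of the 10 fits that left out 1 rat (adjusted p from 0.026 to 0.206). Ephx1 also did not pass in the fit on the 10 arrays alone, so its call rested on the genistein arrays in the model. Genistein rats averaged 11.7, which is 0.41 above the control rats (adjusted p = 0.168).

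**Figure D2:**
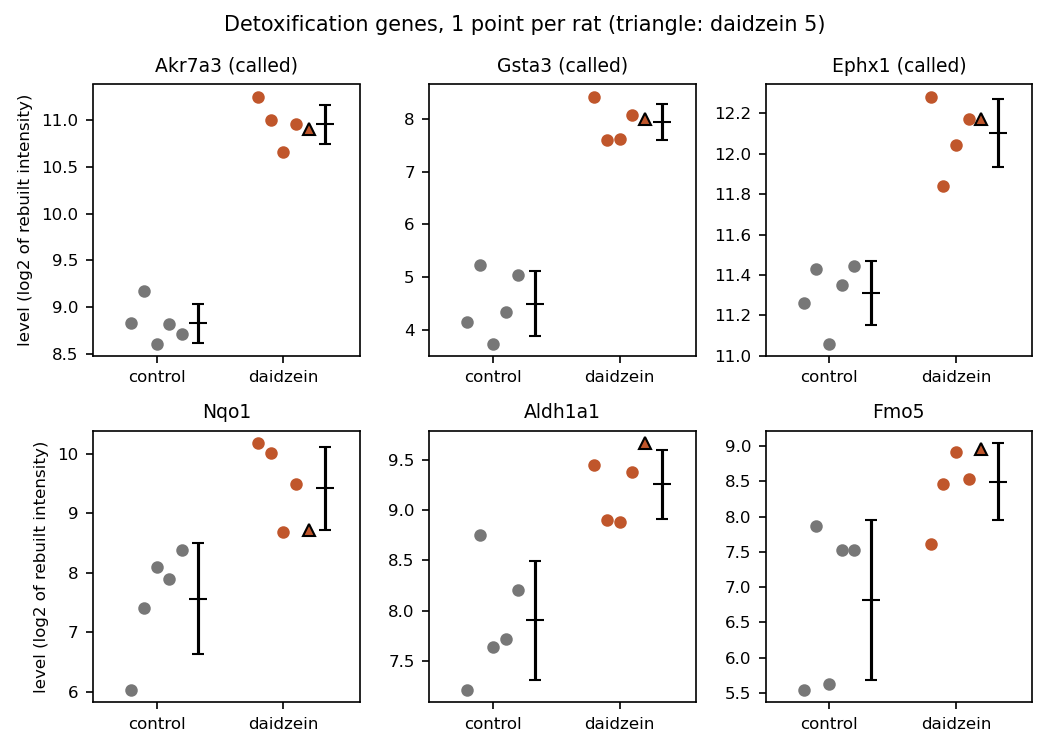
Levels (y axis, log2 of rebuilt intensity, a separate scale in each panel) of the 3 called genes and of Nqo1, Aldh1a1 and Fmo5 in control and daidzein rats. Points are rats, triangles mark daidzein 5, and the bar beside them is the mean ± SD (n = 5). The groups do not overlap for Akr7a3, Gsta3, Ephx1, Nqo1 and Aldh1a1, and overlap for Fmo5.

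The starts of these 3 genes were searched for the core of the antioxidant response element, TGACNNNGC, and of the xenobiotic response element bound by the aryl hydrocarbon receptor, GCGTG, on both strands, from 250 bases before to 50 bases after the start (RefSeq, GRCr8). The 150 bases before the start are shown for each called gene and for Gstp1, another GST with non-overlapping groups, 5′ to 3′ on the gene's strand, with each TGACNNNGC match in capitals. The windows are chr5:156876571-156876720 (plus strand) for Akr7a3, chr9:31154839-31154988 (plus) for the upstream of 2 Gsta3 starts, chr13:95275853-95276002 and chr13:95263118-95263267 (both minus) for the upstream and downstream Ephx1 starts, and chr1:210769706-210769855 (minus) for Gstp1.
Akr7a3: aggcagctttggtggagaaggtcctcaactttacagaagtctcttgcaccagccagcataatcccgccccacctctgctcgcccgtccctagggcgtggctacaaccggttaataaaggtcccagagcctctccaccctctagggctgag
Gsta3, upstream start: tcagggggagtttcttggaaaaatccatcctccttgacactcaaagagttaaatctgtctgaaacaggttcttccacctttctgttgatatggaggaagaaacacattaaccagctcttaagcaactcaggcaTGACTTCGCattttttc
Ephx1, upstream start: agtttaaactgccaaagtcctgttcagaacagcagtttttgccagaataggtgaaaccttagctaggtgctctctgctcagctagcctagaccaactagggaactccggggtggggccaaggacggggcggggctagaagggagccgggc
Ephx1, downstream start: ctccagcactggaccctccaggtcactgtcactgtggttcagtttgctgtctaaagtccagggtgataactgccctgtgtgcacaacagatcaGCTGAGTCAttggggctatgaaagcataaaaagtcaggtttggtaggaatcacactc
Gstp1: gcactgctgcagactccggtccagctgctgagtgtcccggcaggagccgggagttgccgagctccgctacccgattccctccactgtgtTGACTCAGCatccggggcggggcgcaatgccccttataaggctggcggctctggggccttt
Gsta3 held TGACTTCGC at bases -17 to -9 from its upstream start, and Gstp1 held TGACTCAGC at -61 to -53. Ephx1 held TGACTCAGC on the opposite strand at -57 to -49 of its downstream start and no match at its upstream one. In Akr7a3 and Nqo1 TGACNNNGC did not occur in the window. GCGTG occurred 1 time in each of them, 1 time over the 2 starts of Gsta3 and 2 times in Gstp1. It occurred at neither start of Ephx1. Sites farther from the start were not searched. Of the 51 detoxification genes described here, 44 had a promoter in the table; 13 of them held the antioxidant core and 24 the xenobiotic core. Over all genes with a promoter, 13.1% held the antioxidant core and 32.4% the xenobiotic core (12.1% and 29.7% of the 33469 promoters). TGACTCAGC also contains TGACTCA, the AP-1 site. A match is a description of the letters only.

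The list of reductases, hydrolases and related enzymes known as Nrf2 targets held 16 genes, of which 14 were tested and 2 (Cbr3 and Aldh3a1) were too dim. Of the 14, 10 were higher and 4 lower with daidzein. Of the 14, 2 passed the test, Akr7a3 and Ephx1, where 0.0279% of all genes passed and were higher. Groups did not overlap for 4, all higher. Every daidzein rat was above every control rat in 0.847% of all genes and below in 1.15%. The lists were chosen with earlier results of these data known, so these shares describe the list and do not test it. The median difference of the list was 0.08, and 0.15 without daidzein rat 5, against -0.00 over all genes. Per-rat medians, relative to the control mean, overlapped, with daidzein rat 5 at 0.06 and control rat 5 at 0.09. Nqo1, a quinone reductase, read 6.02, 7.40, 8.10, 7.90 and 8.39 in control rats 1 to 5 and 10.18, 10.02, 8.69, 9.50 and 8.72 in daidzein rats 1 to 5; daidzein rats 1, 2 and 4 were the highest, and control rat 1 the lowest. The difference was 1.86 (3.63-fold, SE 0.403, adjusted p = 0.229), higher in 5 of 5 daidzein rats than in any control rat, and it did not pass. Aldh1a1, which oxidises retinaldehyde and other aldehydes, read 7.22, 8.75, 7.64, 7.72 and 8.21 against 9.44, 8.90, 8.88, 9.38 and 9.66, a difference of 1.35 (SE 0.297, adjusted p = 0.242) that also did not pass. With genistein it was 1.72 above the same control rats (adjusted p = 0.0264), and daidzein minus genistein was -0.38 (adjusted p = 0.773).

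The other enzymes of the list had smaller differences. The biliverdin reductase Blvrb differed by 0.50 (SE 0.215, adjusted p = 0.578), and Akr7a2, Cbr1, Nqo2, Ptgr1, Akr1b8, Akr1b10 and Aldh9a1 by between -0.09 and 0.14. Akr1b7 varied from 2.78 to 8.13 between rats, with a difference of -0.06 (SE 0.907) that was 0.49 without daidzein rat 5. The heme oxygenase Hmox1 went the other way from Nqo1, reading 7.71, 7.62, 7.30, 7.62 and 7.13 against 7.16, 7.13, 6.97, 7.28 and 7.25, a difference of -0.31 (SE 0.132, adjusted p = 0.564).

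Among the 16 glutathione S-transferases outside the alpha class, all of them tested, 12 were higher with daidzein, with a median difference of 0.25 and 0.26 without daidzein rat 5. None passed the test; 8 were higher at an unadjusted p under 0.05 and 0 lower (4.01% and 4.59% of all genes), and without rat 5 there were 7 higher (3.79% of all genes, with 3.94% lower). The per-rat median over the 16 genes, relative to the control mean, was between -0.09 and 0.06 in control rats and between 0.14 and 0.25 in daidzein rats. The sign of the list's median was kept in all 21 alternative settings. Some of these genes are near-identical copies whose probe sets may share signal, so they are not independent of each other.

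Groups did not overlap for 4 of them, Gstt1, Gstm2, Gstp1 and Gstm1, all higher. Of all genes, 0.847% had every daidzein rat above every control rat and 1.15% every one below. Gstt1, of the theta class, read 9.08, 9.17, 8.68, 8.89 and 9.12 against 9.43, 9.85, 9.36, 10.00 and 9.44 in the same order of rats, a difference of 0.63 (SE 0.181, adjusted p = 0.377). Gstm2, of the mu class, read 10.96, 10.79, 10.51, 11.14 and 11.03 against 11.30, 11.31, 11.46, 11.68 and 11.40, a difference of 0.55 (SE 0.144, adjusted p = 0.348). Gstp1, of the pi class, read 8.36, 8.58, 8.67, 8.64 and 8.46 against 9.23, 8.82, 8.78, 8.75 and 9.40, a difference of 0.45 (SE 0.123, adjusted p = 0.348), which was 0.35 without daidzein rat 5, the highest of its group. For Gstm1, which is abundant in liver, the step was smaller, 0.20 (SE 0.0662, adjusted p = 0.441). Of the others, Gstm3 (0.49), Gstt2 (0.38), Gstm4 (0.30) and Mgst2 (0.29) were higher at an unadjusted p under 0.05, while Mgst3 (-0.17), Gstk1 (-0.17), Gstm5 (-0.14) and Mgst1 (-0.06) were lower on average. A dimmer probe set of Gstt2 read -0.09. In the alpha class, beside Gsta3, the abundant Gsta1 differed by 0.24 (adjusted p = 0.645) and Gsta4 by -0.07. Gsta2, Gsta5 and Gsta6 had no probe set with their symbol alone and were not tested.

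**Figure D3:**
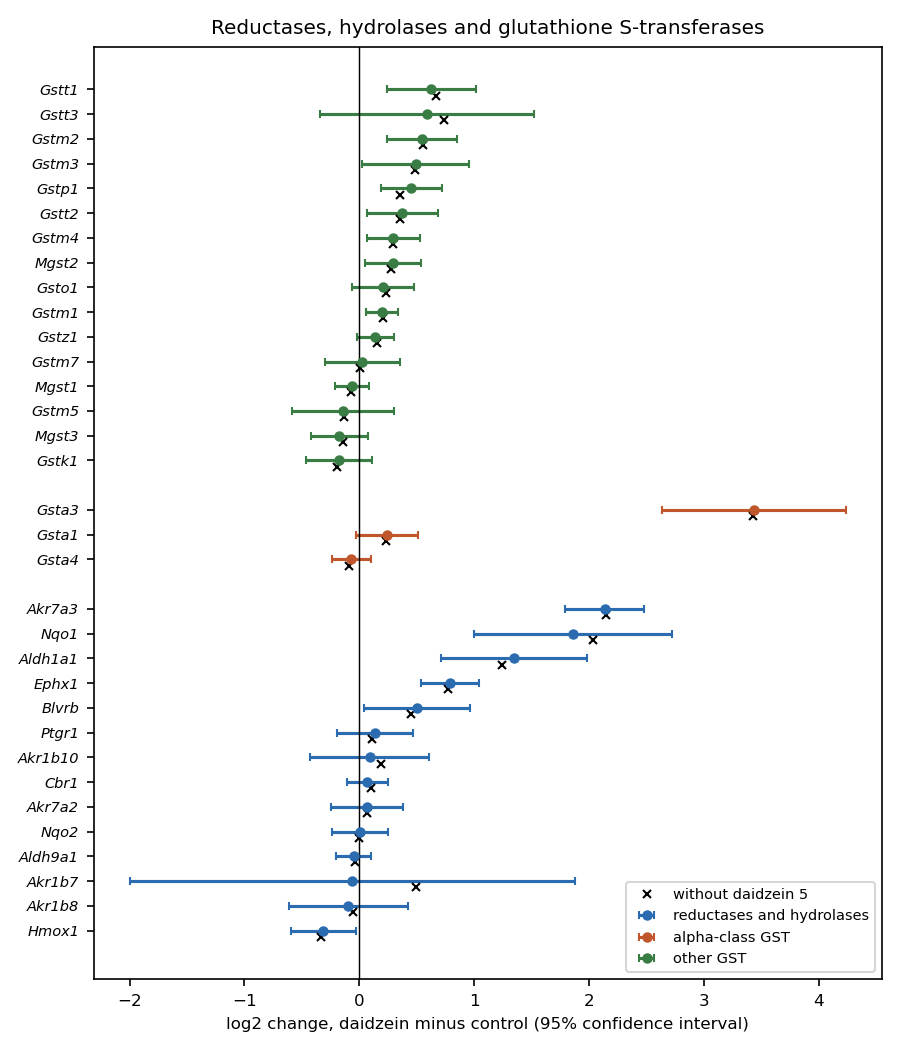
Log2 change, daidzein minus control (x axis), with its 95% confidence interval, for the tested reductases and hydrolases and the 19 tested glutathione S-transferases; crosses give the change without daidzein 5. Gsta3 at 3.44 and Akr7a3 at 2.13 lie farthest from 0, and 12 of the 16 transferases outside the alpha class lie above 0.

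Enzymes that make and recycle glutathione differed little. Of 18 tested genes of the glutathione and thioredoxin list, 14 were higher (13 without daidzein rat 5), the median was 0.08 (0.09), and none passed. Gclm, the modifier subunit of the enzyme that makes the first step of glutathione synthesis, read 8.79, 8.62, 8.91, 8.74 and 8.82 against 9.52, 9.06, 8.80, 9.37 and 9.13, a difference of 0.40 (SE 0.149, adjusted p = 0.503) with 4 of 5 daidzein rats above the highest control rat. The catalytic subunit Gclc differed by 0.07, with daidzein rats 1 and 2 above every control rat and rats 3 and 4 below every one. Sod2, the mitochondrial superoxide dismutase, differed by 0.24 (adjusted p = 0.422), Me1 by 0.26, Gsr by 0.23, Txnrd1 by 0.15 and Srxn1 by 0.06, and the pentose phosphate enzyme Taldo1 by -0.22 (adjusted p = 0.602). Nrf2 itself (Nfe2l2, -0.12), Keap1 (0.10), Mafg (0.14) and Sqstm1 (0.15) did not pass, and the 7 tested genes of that list had a median of 0.10 (0.07 without daidzein rat 5).

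Tested genes of glucuronidation, the main route by which isoflavones are conjugated, were higher on average: 6 of 7 (48.8% of all genes), median 0.25, 0 called and 3 higher at an unadjusted p under 0.05 (4.01% of all genes). The list had 17 entries, and most were not tested. Ugt1a1, Ugt1a6, Ugt1a7c and Ugt1a8 had no probe set with their symbol alone, so the list says nothing of them. The 7 include Ugp2 and Ugdh, which are not transferases. Without daidzein rat 5 the counts were again 6 and 3, and the median 0.28. Per-rat medians of the 7 genes, relative to the control mean, overlapped between the diets. Daidzein rat 3 was at -0.04, and control rats 1 to 3 were between 0.08 and 0.13. Ugp2, which makes UDP-glucose, read 10.70, 10.92, 10.55, 10.42 and 10.47 against 11.45, 11.17, 10.83, 10.91 and 11.51, a difference of 0.56 (SE 0.156, adjusted p = 0.36), Ugt2b15 differed by 0.30 (adjusted p = 0.389) and Ugdh, which oxidises UDP-glucose to UDP-glucuronic acid, by 0.25 (adjusted p = 0.649). Of 11 sulfotransferases and related genes 7 were higher, with a median of 0.06 whose sign turned without daidzein rat 1 (-0.03). Among them Sult2a6 differed by 1.17 (SE 0.465, adjusted p = 0.539) with overlapping groups.

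Of 16 tested targets of CAR and PXR, 12 were higher with all rats and 8 without daidzein rat 5, where 48.8% of all genes were higher; the median went from 0.16 to 0.07, and none passed. The flavin monooxygenase Fmo5 read 5.54, 7.87, 5.63, 7.52 and 7.53 against 7.61, 8.46, 8.92, 8.53 and 8.96, a difference of 1.68 (SE 0.445, adjusted p = 0.348), with control rats 1 and 3 well below the other 3 control rats. With genistein it was 2.77 above the same control rats (adjusted p = 0.0196). Cyp2c6v1 differed by 0.30 (SE 0.0803, adjusted p = 0.348) and Cyp3a23-3a1 by 0.36 (adjusted p = 0.559). The gene of CAR itself, Nr1i3, had non-overlapping groups, 5.98, 5.70, 5.82, 6.28 and 6.14 against 6.58, 6.56, 6.51, 6.52 and 7.09, a difference of 0.67 (SE 0.27, adjusted p = 0.549) that was 0.56 without daidzein rat 5, its highest value; the gene of PXR, Nr1i2, differed by -0.04. Of 6 tested genes of the aryl hydrocarbon receptor list, 2 were higher, Nqo1 and Arnt (0.14), or 3 without daidzein rat 5, and Cyp1a2, a cytochrome induced by that receptor, read 10.51, 10.61, 10.45, 10.97 and 10.97 against 10.37, 10.78, 10.16, 10.66 and 9.98, a difference of -0.31 (adjusted p = 0.704).

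Predicted loci and pancreatic markers were set aside for the genes examined next. Of the other uncalled genes, 84 had all daidzein rats above all control rats with both group means above the filter level. With no gene set aside, 91 of 10745 genes (0.847%) had all daidzein rats above all control rats. Of the 84, the 12 of lowest p were examined. Besides Nqo1 and Aldh1a1 they were Dap, Cd14, Irak1, Slc17a3, Mlec, Tmco1, Cavin3, Gemin8, Chmp5 and Adh5, and none passed. Cd14, the lipopolysaccharide co-receptor, read 8.61, 8.23, 8.10, 8.60 and 8.57 against 9.38, 9.42, 9.39, 9.26 and 9.30; the 5 daidzein rats spanned 0.15 and the control rats 0.51. The difference was 0.93 (SE 0.167, adjusted p = 0.126; 0.227 without daidzein rat 5), and in the fit on the 10 arrays alone it passed (0.94, adjusted p = 0.0377). Irak1, a kinase of Toll-like receptor signalling, differed by 0.39 (SE 0.0719, adjusted p = 0.145), and its second probe set by 0.28. Markers of Kupffer cells and leukocytes did not go with Cd14: 8 of 9 tested were lower on average (51.2% of all genes), with a median of -0.15 and -0.21 without daidzein rat 5, among them C1qa (-0.34, adjusted p = 0.561) and Cd163 (-0.43, adjusted p = 0.62). Per-rat medians of these markers, relative to the control mean, overlapped: -0.29 to 0.01 in daidzein rats and -0.12 to 0.14 in control rats. In whole liver a change in the number of cells of a type and a change in RNA per cell cannot be told apart.

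Slc17a3, an organic anion transporter, read 8.15, 8.16, 8.23, 8.28 and 8.34 against 9.37, 9.14, 8.84, 9.31 and 8.84, a difference of 0.86 (SE 0.167, adjusted p = 0.147). Dap, a death-associated protein, differed by 0.64 (SE 0.115, adjusted p = 0.126), and Cavin3, a caveolar coat protein, by 0.57 (SE 0.13, adjusted p = 0.252), with daidzein rat 5 just above the highest control rat. The steps of Mlec, a lectin of the endoplasmic reticulum (0.39), Adh5, which reduces S-nitrosoglutathione (0.37), Gemin8 (0.33), Tmco1, a calcium channel of the endoplasmic reticulum (0.29), and Chmp5, of the ESCRT machinery (0.27), were small and came with adjusted p from 0.201 to 0.348.

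In the other direction, by the same rule, 119 genes had all daidzein rats below all control rats with both means above the filter level. With no gene set aside there were 124 of 10745 (1.15%). The 12 of lowest p among the 119 again held no called gene. Mpc1, a subunit of the carrier that brings pyruvate into mitochondria, came nearest: it read 11.65, 11.59, 11.66, 11.49 and 11.59 against 11.26, 10.81, 10.92, 10.86 and 11.09, a difference of -0.61 (SE 0.0949, adjusted p = 0.0644; 0.125 without daidzein rat 5). Daidzein was also below genistein, by -0.63 (adjusted p = 0.0192). Mpc1 passed against control in 4 of the 21 alternative settings, one of which left out daidzein rat 1 (adjusted p = 0.0128). Smlr1 read 10.83, 10.81, 10.90, 10.82 and 10.90 against 10.61, 10.31, 10.37, 10.34 and 10.14, a difference of -0.50 (SE 0.085, adjusted p = 0.089).

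Of the remaining 10, Ndufc2 and Mrpl33 encode mitochondrial proteins. Ndufc2, of complex I, differed by -0.44 (SE 0.0853, adjusted p = 0.147), and Mrpl33, a mitochondrial ribosomal protein, by -0.30 (adjusted p = 0.326). Crym, which binds thyroid hormone, read 8.78, 8.62, 8.27, 8.20 and 7.88 against 7.64, 7.30, 7.49, 7.24 and 7.46, a difference of -0.93 (SE 0.205, adjusted p = 0.243). Dmxl2, which helps assemble the vacuolar proton pump, had the largest difference, -1.29 (SE 0.267, adjusted p = 0.21), with control rats spread from 6.44 to 7.73. Fam98c (-0.39), Sem1, a proteasome lid subunit (-0.33), Nhlrc3 (-0.52), Abcc6, an efflux transporter of liver (-0.30), Dtx4 (-0.57) and Ss18 (-0.33) had adjusted p from 0.177 to 0.279. Second probe sets of Dtx4 (-0.20) and Ss18 (0.00) had overlapping groups.

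Daidzein rat 1 stood apart for a few of the lower genes. Without it, 8 probe sets passed in place of 3, 6 of them lower: Rida, Polr2k, Rbis, Mpc1, Smlr1 and 1 without a symbol. Rida, Polr2k and Rbis were picked after their values were seen. Rida, a deaminase that removes reactive imines, read 11.63, 11.19, 11.80, 11.23 and 11.65 in control rats 1 to 5 and 11.57, 9.98, 10.06, 10.11 and 10.38 in daidzein rats 1 to 5, so daidzein rat 1 was at the control level and the other 4 were below every control rat. Its difference was -1.08 over all 5 rats (SE 0.252, adjusted p = 0.279) and -1.37 without rat 1 (adjusted p = 0.00257). Polr2k, a subunit of RNA polymerases, went from -0.72 to -0.87, and Rbis from -1.14 to -1.36.

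**Figure D4:**
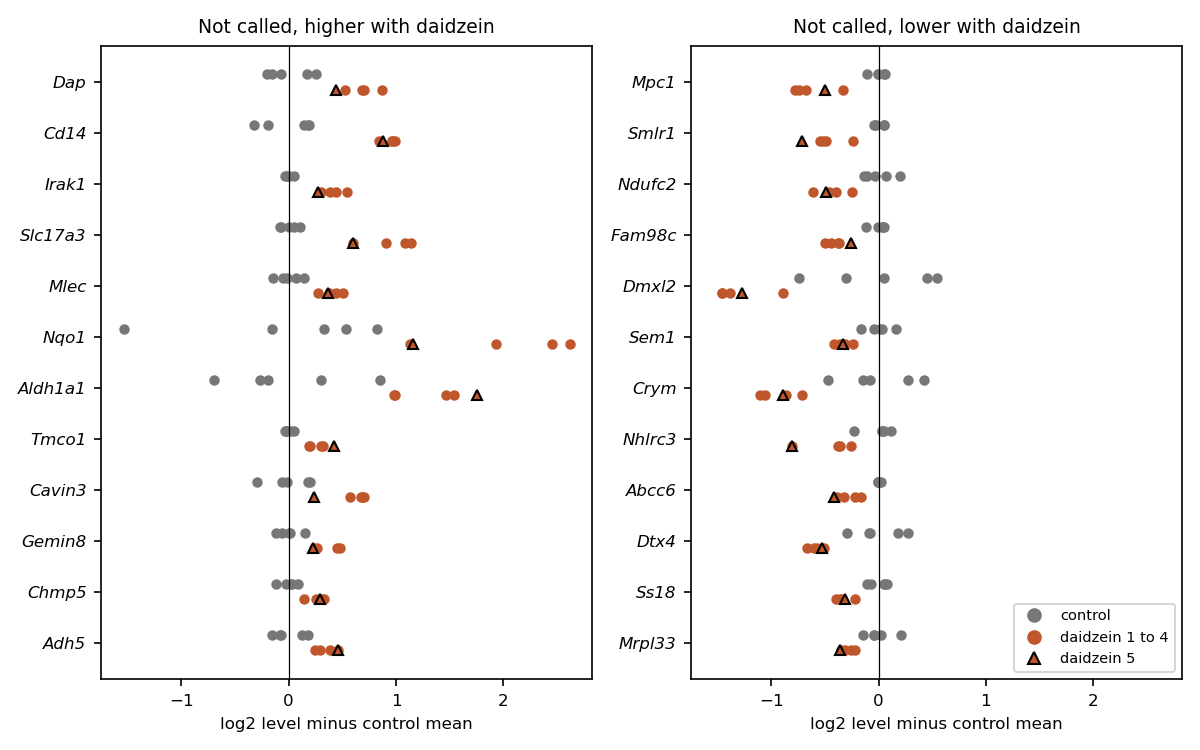
Level minus the control mean (x axis, log2) of the 12 uncalled genes that were higher (left) and the 12 that were lower (right) with daidzein, with 1 point per rat; triangles mark daidzein 5. By the rule that chose these genes, no daidzein point overlaps a control point; the largest mean differences belong to Nqo1 and Aldh1a1 on the left and Dmxl2 and Crym on the right.

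Genes of the respiratory chain were lower on average, in small steps. Of 29 tested subunits of the electron transport chain and ATP synthase 24 were lower (51.2% of all genes), with a median of -0.10 (-0.09 without daidzein rat 5) and 0 called. At an unadjusted p under 0.05, 7 were lower, or 5 without daidzein rat 5, and 0 higher (4.59% and 4.01% of all genes). The median kept its sign in all 21 alternative settings. Per-rat medians, relative to the control mean, overlapped between the diets. Daidzein rats 1 and 2 were at -0.03 and -0.05, and control rat 2 was at -0.06. Daidzein rats 3 to 5 were between -0.14 and -0.07, below every control rat. Cox6c, of complex IV, read 11.42, 11.42, 11.43, 11.46 and 11.65 against 11.39, 11.20, 11.15, 11.18 and 11.20, a difference of -0.25 (SE 0.0794, adjusted p = 0.409), and Ndufa1 of complex I (-0.32), Cox7c (-0.28) and Ndufb3 (-0.24) were of like size. Mitochondrial fatty acid oxidation genes were split, 7 higher and 10 lower with or without daidzein rat 5, with Eci1 at 0.45 (adjusted p = 0.437) and Acadm, the medium-chain dehydrogenase, at -0.22 (adjusted p = 0.483).

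Targets of PPAR alpha, the fatty acid receptor that raises peroxisomal and mitochondrial oxidation, were mostly higher: 27 of 31 tested, or 23 without daidzein rat 5, where 48.8% of all genes were, with a median of 0.17 (0.18 without that rat). None passed, and 6 were higher and 0 lower at an unadjusted p under 0.05 (4.01% and 4.59% of all genes). Per-rat medians, relative to the control mean, overlapped between the diets. Daidzein rat 1 was at 0.04, below control rats 2 and 5 at 0.07 and 0.13. Daidzein rats 2 to 5 were between 0.14 and 0.30, above every control rat. Ehhadh, a peroxisomal oxidation enzyme, read 9.57, 9.83, 9.20, 9.52 and 9.81 against 9.83, 10.27, 9.92, 10.06 and 10.15, a difference of 0.46 (SE 0.121, adjusted p = 0.348). Ucp3 had non-overlapping groups, with a difference of 0.50 (SE 0.135, adjusted p = 0.348), but its second probe set read -0.34. Vnn1 differed by 0.61 (adjusted p = 0.461), Cyp4a1, a fatty acid hydroxylase, by 0.47 (adjusted p = 0.586), Cpt1a, the entry step of mitochondrial oxidation, by 0.24 (adjusted p = 0.74), and Ppara itself by 0.32 (adjusted p = 0.767).

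Of 22 tested genes of fatty acid synthesis, 17 were lower on average (18 without daidzein rat 5; 51.2% of all genes), with a median of -0.17 (-0.14) and 0 called. Relative to the control mean, per-rat medians were between -0.25 and -0.09 in daidzein rats and between -0.19 and 0.14 in control rats. At an unadjusted p under 0.05, 2 were lower, which is 9.09% of the list against 4.59% of all genes. These 2 were Mlxipl, which encodes the carbohydrate-responsive factor ChREBP (-0.33, SE 0.104, adjusted p = 0.416), and the elongase Elovl5 (-0.24, adjusted p = 0.441). Srebf1, the sterol-regulated activator of lipogenesis, read 11.02, 10.44, 10.59, 10.70 and 9.87 against 10.57, 10.29, 9.92, 9.58 and 9.12, a difference of -0.63 (SE 0.316, adjusted p = 0.638) that was -0.43 without daidzein rat 5, its lowest value. Fasn (-0.34, SE 0.394), Acaca (-0.17) and Scd (-0.05) had overlapping groups. Of 22 cholesterol synthesis genes 14 were lower, with a median of -0.10 and -0.04 without daidzein rat 5. Insig1, a sterol-regulated brake on that pathway, differed by -1.02 (SE 0.565, adjusted p = 0.664) and by -0.79 without daidzein rat 5, with daidzein rats 1 and 2 at 11.33 and 11.92 and rats 3 to 5 between 9.58 and 9.82.

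Lists of triacylglycerol storage, fatty acid uptake, bile acids and lipoproteins had medians between -0.03 and -0.01, and their signs turned in 6 to 8 of the 21 alternative settings. Single genes among them included the bile acid enzymes Hsd3b7 (0.66, adjusted p = 0.483) and Akr1d1 (0.47, adjusted p = 0.437), the droplet protein Cidea (0.46, adjusted p = 0.483) and the fatty acid-binding protein Fabp2 (-0.59, adjusted p = 0.509). Cyp7a1, the rate-limiting enzyme of bile acid synthesis, differed by -0.02 (SE 0.562), and by 0.21 without daidzein rat 5. In carbohydrate metabolism Gckr, the regulator of glucokinase, had non-overlapping groups, 10.51, 10.48, 10.60, 10.54 and 10.61 against 10.29, 10.25, 10.33, 10.36 and 10.11, a difference of -0.28 (SE 0.073, adjusted p = 0.348), and Pck1, of gluconeogenesis, differed by 0.07.

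Chaperones of the endoplasmic reticulum were higher for 22 of 26 tested genes (21 without daidzein rat 5; 48.8% of all genes), with a median of 0.13 and 0.16 without that rat. None passed; 3 were higher and 1 lower at an unadjusted p under 0.05 (4.01% and 4.59% of all genes), and without rat 5 these were 7 and 1 (3.79% and 3.94%). Dnajb9, a co-chaperone, differed by 0.46 (SE 0.159, adjusted p = 0.461), Manf by 0.26 (adjusted p = 0.527), Pdia3, a disulfide isomerase, by 0.23 (adjusted p = 0.597) and Canx, calnexin, by -0.17 (adjusted p = 0.538). Of 21 proteasome subunits 15 were higher (19 without rat 5), with a median of 0.09 (0.11). Psmd14, of the lid, read 8.89, 8.93, 9.14, 9.02 and 8.87 against 9.20, 9.20, 9.35, 9.22 and 9.24, a difference of 0.27 (SE 0.0848, adjusted p = 0.403), and Psmc1, of the base, also had non-overlapping groups (0.16, adjusted p = 0.577). Both medians kept their sign in all 21 alternative settings. Per-rat medians, relative to the control mean, overlapped between the diets in both lists. Daidzein rat 5 was at -0.03 for the chaperones and -0.004 for the proteasome, within the control range. Daidzein rats 1 to 4 were above every control rat in both.

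Among acute-phase and complement genes 13 of 27 were higher, and 14 without daidzein rat 5. Orm1, the acute-phase plasma protein orosomucoid, had non-overlapping groups, 11.97, 12.50, 11.84, 12.15 and 11.58 against 12.66, 12.67, 12.65, 12.61 and 12.55, with a range of 0.13 among daidzein rats and 0.92 among control rats, and a difference of 0.62 (SE 0.162, adjusted p = 0.348). Crp differed by 0.18 (adjusted p = 0.533) and Socs3, an inhibitor of cytokine signalling, by -0.31 (adjusted p = 0.503). Daidzein binds estrogen receptors weakly. Of 10 genes of the estrogen response list 8 were higher, with a median of 0.14, none passed, and 0 were at an unadjusted p under 0.05; without daidzein rat 5, 7 were higher, the median was 0.17 and 1 was under 0.05. Of 12 female-predominant genes, 5 were higher with or without daidzein rat 5. Of 15 genes listed as male-predominant, 4 were higher with all rats and 2 without daidzein rat 5, and the median went from -0.07 to -0.14. Cyp2c12 stands in both lists but is known as female-predominant. Without it 4 of the 14 other genes listed as male-predominant were higher, with a median of -0.07 (-0.13 without rat 5). The lists were fixed by hand and all rats were male, so the sex pattern of the members was not tested. The medians of both lists as given changed sign under median centring.

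Stellate cell markers were lower for 7 of 8 genes with or without daidzein rat 5 (51.2% of all genes), with a median of -0.04 (-0.03). At an unadjusted p under 0.05, 3 were lower with all rats and 2 without rat 5 (4.59% and 3.94% of all genes). Per-rat medians, relative to the control mean, overlapped: -0.29 to 0.04 in daidzein rats and -0.10 to 0.10 in control rats. The matrix proteoglycan Dcn read 6.92, 6.80, 6.97, 6.72 and 6.21 against 6.61, 5.53, 5.60, 5.63 and 6.43, a difference of -0.76 (SE 0.219, adjusted p = 0.377), -0.88 without daidzein rat 5, and the collagen Col3a1 differed by -0.30 (SE 0.0922, adjusted p = 0.388), -0.37 without that rat. Endothelial markers (median -0.05 over 5 genes), erythroid markers (0.07 over 3) and hepatocyte markers (-0.01 over 9) had medians within 0.07 of 0. No list other than the reductases and the alpha-class transferases held a called gene.

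**Figure D5:**
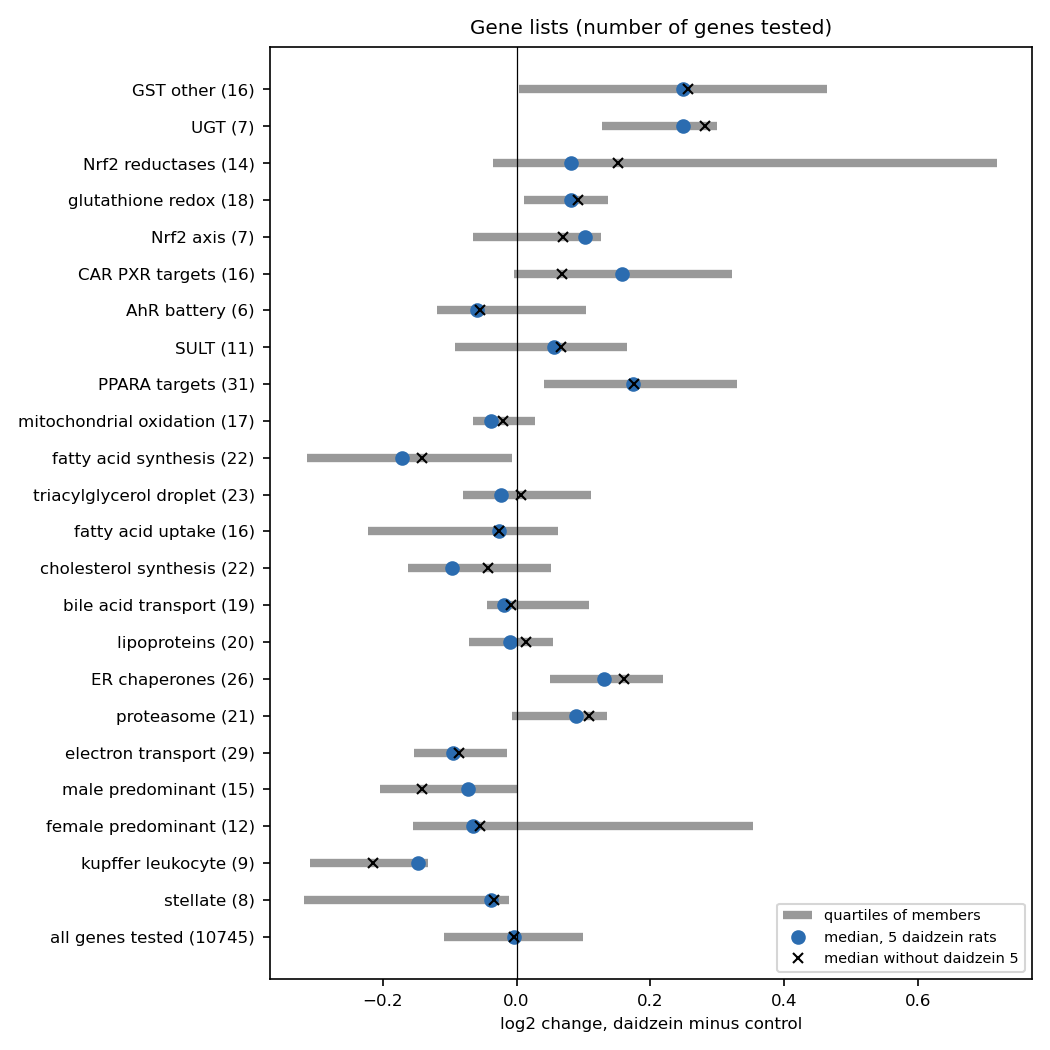
Median log2 change, daidzein minus control (x axis, circles), of 23 gene lists and of all 10745 genes, with the number of tested genes in brackets; grey bars span the members' quartiles and crosses give the median without daidzein 5. The transferases outside the alpha class and the glucuronidation list lie highest at 0.25, fatty acid synthesis lies lowest at -0.17, and all genes lie at -0.00.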

How the data were processed

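RNA of whole liver was labelled with biotin and hybridised to 1-channel Affymetrix rat arrays, 1 per rat, per the labels. For each array the authors deposited 31099 values, 1 per probe set, which are logged signals standardized within the array (a score without a unit). The background correction and the summary of probes are not given in the sources. Their scale was worked out from the most repeated values, whose 360 gaps were all whole multiples (360 of 360) of a common intensity step to within 0.001 step, at 2.60 log2 units per deposited unit (2.54 to 2.79 by array). Values were multiplied by that common factor, so log2 changes rest on this inference, and those of dim probe sets on the background the authors removed.

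Quantile normalization over the 15 arrays was done in limma 3.58.1 (R 4.3.3). After removal of 57 array controls, a probe set was tested if its mean level reached the 40th percentile, which kept 18625. A model of 3 diets was fitted over 15 arrays with lmFit and eBayes (12 residual degrees of freedom), and p-values were adjusted by Benjamini-Hochberg over all 18625; "called" or "passed" means an adjusted p under 0.05. SE and confidence intervals come from this fit, SD from the 5 arrays of a diet, and a fold is 2 to the power of the log2 change. The number of arrays limits the precision. On simulated data with 100 probe sets moved by 1 log2 unit and 100 by 2, 77 and 98 were recovered, with 14 false calls. The simulated noise was independent and normal, and with many moved probe sets the adjusted p threshold is easier to pass. The recovered shares therefore check the procedure and do not give the power of this comparison.

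The annotation of the array gave 1 symbol for 20826 probe sets, several for 436 and none for 9780, and 20758 were found in the current rat gene table. A gene stands for its tested probe set of highest mean level (10745 genes). The comparison, the 42 gene lists and the genes described were chosen with earlier results of these data known. Named genes are the called ones, up to 12 higher and 12 lower uncalled genes of lowest p whose groups do not overlap, the members of 5 detoxification lists, 24 key genes, and in every other list at most 4 genes, taken by lowest p. The 12 higher and 12 lower were taken after predicted loci, pancreatic markers and genes with a group mean below the filter level were set aside. Lists were described by counts and medians, with no set test. Array medians, scales and 3'/5' ratios of control probe sets were compared by exact permutation over 252 arrangements (two-sided; smallest of 5 adjusted p-values 0.238). Residuals of control and daidzein arrays of the same title number correlated at 0.00378 to 0.109, and those of different numbers at -0.136 to 0.161. These weak correlations cannot settle whether the numbers pair the rats. The main fit took no pairing, and a replicate block was an alternative. The other alternatives concerned normalization, scale, filter, added background, error model and arrays left out.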

Additional observations from a re-analysis of the deposited data

Results flagged for a closer look

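For each of 122 genes given with values, the 5 rats of a diet were examined for 1 rat far from the others, by the gap to the nearest rat as a share of the group's range (over 0.71). This marked 11 of 244 groups, and chance alone marks about 1 in 20. Daidzein rat 5 was the highest of its diet for the acinar genes Pnlip (12.22, share 0.945), Cela1 (11.16, 0.891) and Prss1 (12.88, 0.853) and for Nr1i3 (7.09, 0.875), and the lowest for Cavin3 (11.26, 0.737). Daidzein rat 1 was the highest for Cox6c (11.39, 0.773), Cyp2c12 (12.18, 0.763) and Rida (11.57, 0.746), and daidzein rat 4 the lowest for Nqo2 (8.83, 0.895). Control rat 5 was the highest for Cox6c (11.65, 0.812), and control rat 1 the lowest for Nhlrc3 (6.85, 0.749).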

How the results depend on the processing

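The number of called probe sets, 3 over all rats, was 7 with a filter at the 60th percentile, 6 with a trended and robust error model, and 1 without both control rat 1 and daidzein rat 5. It ranged from 2 to 8 when 1 rat was left out, with 8 only without daidzein rat 1. Whether the title numbers pair the rats was not settled. With the title number as a replicate block the number called was 2, Akr7a3 and Gsta3. It was 2 without quantile normalization, with median centring and with no filter. It was 4 with 16 units added and 3 with each array's own scale. On the 10 arrays alone it was also 3, but these were Akr7a3, Gsta3 and Cd14. A fit on 9 arrays, without daidzein rat 5 and genistein, was chosen after seeing the data and called 2. Akr7a3 was called in 21 of 21 alternatives, Gsta3 in 20 and Ephx1 in 5 (adjusted p from 0.0102 to 0.544). The 27 called or non-overlapping genes kept their sign in 567 of 567 combinations of gene and setting. Groups without overlap can hardly change sign when a rat is left out, so this count is no check of those genes. List medians kept their sign in 803 of 882. The settings reuse the same rats, and the error model and replicate block leave the log2 changes as they were. A kept sign of a list median is therefore no independent support. The median change of all probe sets moved by at most 0.0148. Signal over background limits dim genes, as for Gsta3.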
